A study of Mus musculus with 8 samples.

Results

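The array used for these embryos carries probes to 3540 noncoding intervals, each named by its chromosome, start and end on mouse build mm9 and by the strand probed, forward (F) or reverse (R). Both strands were probed for 1067 of these intervals, and only 1 strand for the other 2473. An interval was taken when the same start and end occurred with both suffixes, so no measured value entered the choice. The 1067 intervals held 9682 of the 16181 noncoding interval probes, 4893 forward and 4789 reverse, out of 55681 probes on the array. They ran from 5026 to 508115 bp (median 17901 bp), with 2 to 20 probes per interval (median 10). In 327 intervals there were 5 probes on each strand, and in 73 a single one.

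Large intergenic noncoding RNAs are transcribed from one strand of their locus, and their promoters often also start a transcript in the other direction. Antisense RNAs are made from the strand opposite to another transcript, and some of them take part in silencing neighbouring genes, as at several imprinted clusters. EED is a core subunit of Polycomb repressive complex PRC2, which methylates histone H3 at lysine 27, and noncoding as well as coding loci carry this mark in the early embryo.

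The samples were 8 wild-type E8.5 embryos, each hybridised to its own array: 4 sired by Eed hypo/wt males (HET 1 to HET 4) and 4 sired by Eed wt/wt males (WT 1 to WT 4). The fathers were of the Eedl7Rn5-1989SB line, which carries a hypomorphic Eed allele, on a C57bl6/129 background. The mothers of both groups were wild-type females. The paper's text describes the females as being of the same background, but its legend for this comparison names a different strain for them. The strain of the mothers is therefore not settled here. Each group held 2 female and 2 male embryos. The paper's breeding plan lists 2 wt/wt sires, and its legend for this comparison gives n = 4 for each genotype. The labels give WT 2 to WT 4 the same embryo code and the HET embryos different ones. What the code stands for is not known here. Some WT embryos may share a father or litter, so the 4 embryos of a group may not be independent. The p-values measure the spread between these embryos only. The comparison asks whether the Eed genotype of the father was followed by different expression in genetically wild-type offspring. Each father group was hybridised on a slide of its own, so slide and father genotype cannot be told apart.

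The 8 arrays had 29207 to 39559 probes well above background, Agilent's own call against the background of the array. WT 1 and HET 3 stood apart: of 1446 probes to olfactory and vomeronasal receptor genes, which the embryo has little reason to express, 477 and 542 were well above background there, against 52 to 185 in the other 6 embryos. The median local background was 50 to 51 intensity units on the WT slide and 30 to 32 on the HET slide, except for HET 4 at 133. All 9 genes of an E8.5 embryo list (such as Hbb-bh1, the embryonic globin, and T) and all 4 of a yolk sac endoderm list (such as Afp) were well above background in all 8 embryos. Of 4 decidua and trophoblast genes, Prl8a2 and Prl3d1 were above background in 8 embryos, Prl3c1 in 2 and Tpbpa in 0. The signal of Prl8a2 ranged from -2.39 to 3.14.

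Signals below are log2 processed intensities minus the 75th percentile of the array, and a strand's signal is the mean of its probes. A strand was counted as detected in an embryo when at least 50% of its probes were well above background. One strand was detected in at least 4 of the 8 embryos, and the other in fewer, in 438 intervals (41%). In RNA of whole embryos, few cells with a transcript and little of it per cell cannot be told apart. Both strands were detected in at least 4 embryos in 236 intervals (22.1%) and neither in 393 (36.8%). With a strand counted through its brightest probe alone, 604 intervals had both strands and 343 had one, so the balance of the classes depended on how several probes were combined. Under the strictest reading, 103 intervals (9.65%) had one strand detected in all 8 embryos and the other in 0, 106 (9.93%) had both in all 8 and 83 (7.78%) had neither in any. The class sizes also rested on WT 1 and HET 3: without them 450 intervals had one strand, 152 both and 465 neither, and the strict classes held 198, 109 and 261.

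**Figure D1:**
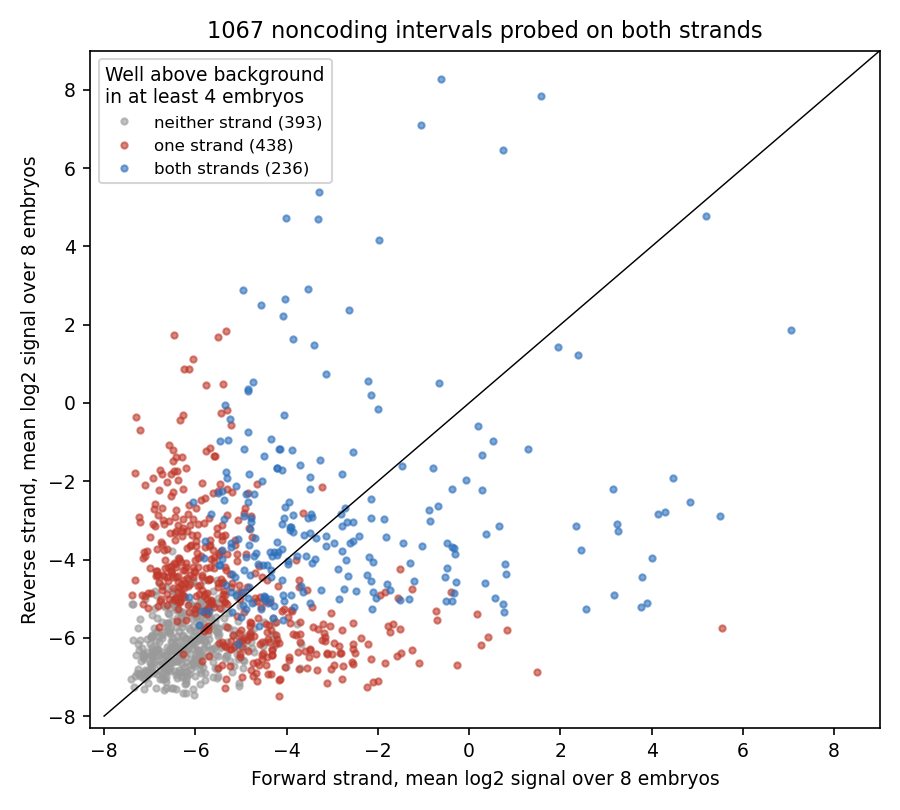
Mean log2 signal of the forward strand (x axis) against the reverse strand (y axis) for each of the 1067 intervals, averaged over 8 embryos; points are coloured by the strands detected in at least 4 embryos and the line marks equal signal. The 438 intervals with one strand lie along both arms, and the 236 with both strands spread on both sides of the line.

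Where one strand was detected it was the reverse strand in 264 intervals and the forward strand in 174, and in the strict class in 68 and 35. The reverse strand was detected in more intervals than the forward strand in 8 of 8 embryos, by 81.5 ± 15.0 intervals (SD, n = 8). At the level of single probes, reverse probes of the 1067 intervals were well above background more often than forward probes by 6.12 percentage points ± 1.47 (SD), in 8 of 8 embryos. In intervals probed on a single strand the same difference was -0.80 ± 0.62 and was positive in 0 of 8. This contrast was noticed after the values were seen and is given without a test. The embryos share the probes, so the 8 values are not 8 independent looks at the strands.

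Among the 103 intervals with one strand detected in all 8 embryos and the other in 0, the brightest was chr7:128341797-128414692, 72896 bp long, with 5 probes on each strand. Its reverse strand read 1.60, 1.69, 1.90 and 1.77 in WT 1 to WT 4 and 1.40, 2.02, 1.65 and 1.83 in HET 1 to HET 4, while its forward strand lay between -7.03 and -5.76. All 5 reverse probes were well above background in every embryo, and 4 of the 5 forward probes were above it in none. A strand not above background has no exact signal. The bright strand's mean was therefore set against a floored mean of the dim strand. On each array the floor was the lowest signal well above background there, used where the dim strand read below it. This floor is the dimmest spot called and not a detection limit. A reverse probe of chr14:115423660-115463160, above background on 0 arrays, read -5.38 in WT 1, where the floor was -6.96. On this scale the reverse strand was 231-fold brighter, which is no lower limit. Forward and reverse probes are different molecules with their own brightness, so such a fold is a difference in signal and not a ratio of transcripts.

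The next brightest of them was chr10:97196521-97207471, 10951 bp long, with a single probe on each strand. The forward strand read 1.57, 1.69, 1.74 and 1.66 in the WT embryos and 1.02, 1.54, 1.37 and 1.24 in the HET embryos. The reverse strand lay between -7.93 and -4.41, with its highest value in HET 3, and was above background in 0 embryos. On the same scale the forward strand was 190-fold brighter. In chr4:146507925-146532650 the reverse strand held the signal, at 0.88 ± 0.13 (SD, n = 8) with 5 of 5 probes detected in all embryos. It was 112-fold brighter than the forward strand on that scale.

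The other 5 of the 8 brightest among these 103 had differences of 26.9-fold to 60.6-fold on this scale. The forward strand was the bright one in chr15:102947390-102971082 (45.3-fold), chr17:17462450-17488725 (59.6-fold) and chr3:40439525-40509975 (26.9-fold). The reverse strand was the bright one in chr13:74568375-74601000 (60.6-fold) and chr1:52507332-52514490 (48.2-fold). A single probe could depart from its strand. In the chr15 interval 1 of the 5 reverse probes was well above background in all 8 embryos, with a mean of -1.38, against 0.17 for the only forward probe. Another reverse probe, at -4.05, was above background on 6 arrays. The fold of the chr15 interval thus holds for the mean of the reverse strand and not for each of its probes. In the chr1 interval 1 of the 4 reverse probes was above background in none. In the chr3 interval, too, 1 of the 5 reverse probes was detected in every embryo.

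**Figure D2:**
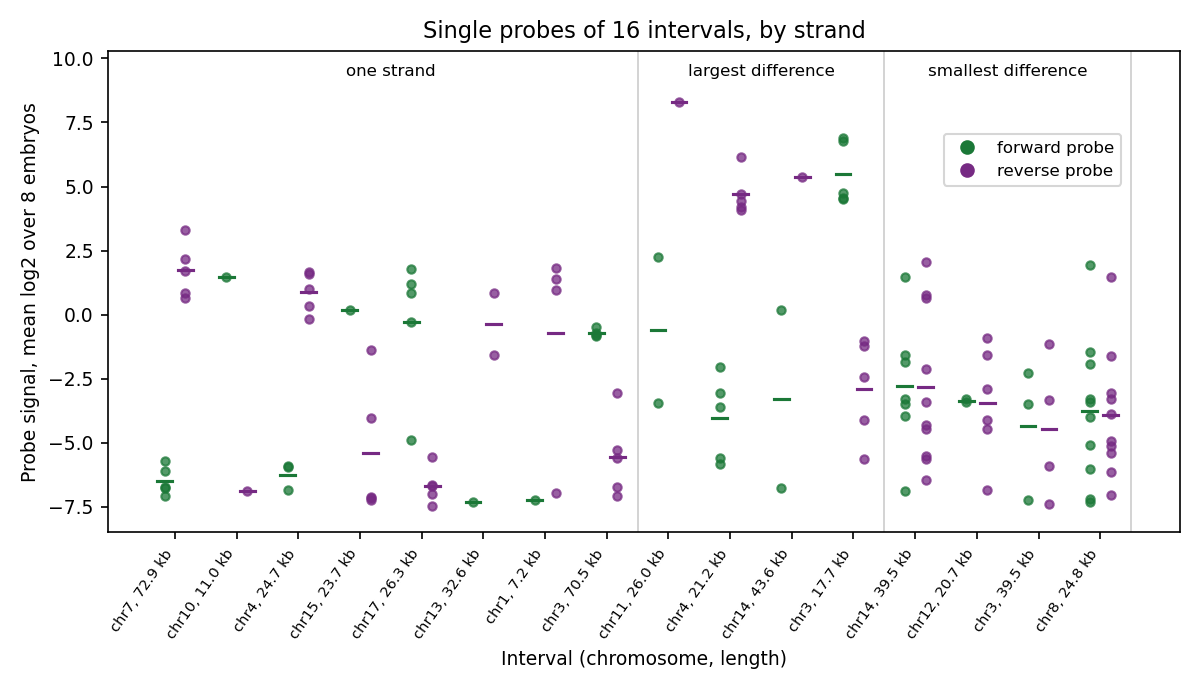
Mean log2 signal over 8 embryos of each probe (points) and of each strand (bars) in 16 intervals: the 8 brightest of the strict one-strand class, and the 4 with the largest and the 4 with the smallest strand difference among intervals detected on both strands in all embryos. In the chr7 interval of 72.9 kb the 5 reverse probes lie between 0.63 and 3.32 and the 5 forward probes between -7.06 and -5.70, whereas in the 4 intervals with the smallest difference the probes of the strands overlap.

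To see how far different probes of one strand lie apart, pairs of probes were compared within each interval. In the one-strand class the median absolute difference was 1.19 on the log2 scale between probes of the same strand and 2.305 between probes of opposite strands, and the opposite-strand value was the larger in 324 of 412 intervals (78.6%). The class itself was set by the signals of these probes, so this is a description. In the both-strand class the medians were 1.79 and 2.67 and the opposite-strand value was the larger in 138 of 214 intervals (64.5%). In the class with neither strand they were 0.90 and 0.89, with the opposite-strand value the larger in 154 of 368 (41.8%). Among the 621 intervals with at least 4 probes on each strand, every probe of one strand was brighter than every probe of the other in 73, the forward strand in 26 and the reverse strand in 47. Of these 73 intervals, 55 were in the one-strand class, 15 in the both-strand class and 3 in the class with neither.

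**Figure D3:**
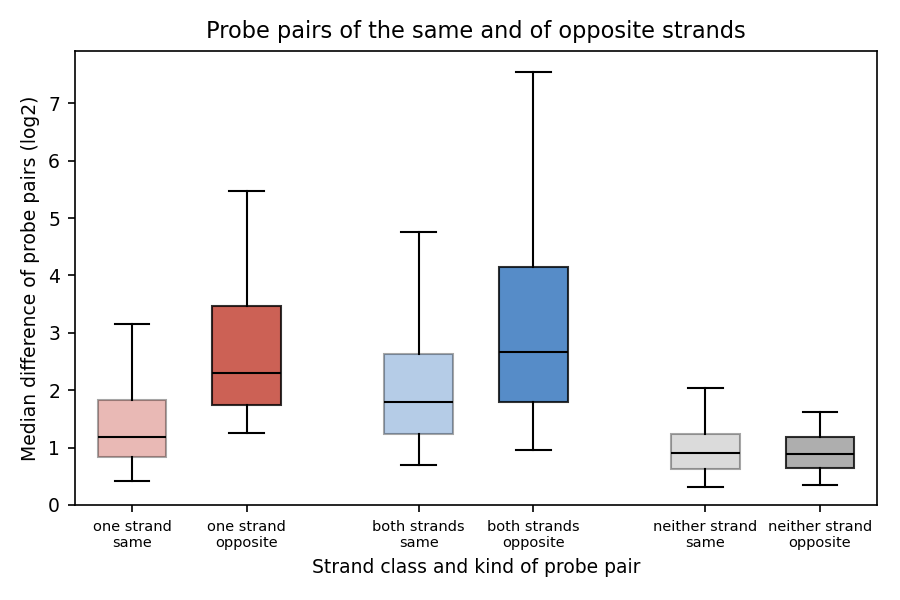
Median absolute log2 difference between pairs of probes within an interval, for pairs on the same strand and on opposite strands, by strand class; the line is the median over intervals, the box the middle quartiles and the whiskers the 5th and 95th percentiles. The boxes for opposite strands lie higher in the one-strand and both-strand classes, and the medians are 0.90 and 0.89 in the class with neither strand.

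In most intervals with signal on both strands, one strand was the brighter. In the 236 intervals with both strands detected, the median absolute strand difference was 1.75 on the log2 scale, with a median SD over embryos of 0.44. That SD measures how well the same probes repeat between embryos and not the spread between probes. Probes of the same strand lay a median of 1.79 apart in this class, so a strand difference of this size can come from the probes. The difference was at least 1 in 157 intervals, at least 3 in 75 and under 1 in 79. It was smaller than its own SD over the embryos in 41. The forward strand was the brighter in all 8 embryos in 87 intervals, the reverse strand in 87, and the order differed between embryos in 62. A strand's mean takes in all its probes, also those not above background, and 43 of the 106 intervals detected on both strands in all embryos held a probe that was above background in no embryo. Over probes well above background on all 8 arrays alone, an alternative chosen after seeing the data, 185 of the 236 intervals had a probe on each strand, the median was 2.11 and the order differed between embryos in 24. The median fell to 1.17 when the background was modelled from the spot signal (normexp with quantile normalization).

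The 6 intervals detected on both strands in all embryos with the brightest dimmer strand are described next. The brightest, chr17:39960567-39992817, was 32251 bp long with 4 forward and 5 reverse probes, all well above background in 8 embryos. Its forward strand read 5.51, 5.16, 5.23 and 5.15 in the WT embryos and 5.05, 5.17, 5.20 and 5.12 in the HET embryos. Its reverse strand read 5.02, 4.89, 4.93 and 4.64, then 4.65, 4.62, 4.61 and 4.83. The forward strand was the brighter in every embryo, by 0.43 ± 0.13 (SD, n = 8), but its probes (3.93 to 6.65) and the reverse probes (3.59 to 5.66) overlapped.

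The other 5 of these intervals were less even. In chr11:19778600-19815950 the strands differed by 0.53 ± 0.47, with the forward strand the brighter in 7 of 8 embryos. In chr5:35975265-35982561 the difference was 1.17 ± 0.30, in 8 of 8. The forward strand was far brighter in chr12:119825125-119850750, at 7.05 against 1.87. The reverse strand was the brighter in chr7:108209996-108216032, at 7.83 against 1.57, and in chr19:56820850-56837925, at 6.46 against 0.74. The SD of the difference over the embryos was 0.12 to 0.27 in these 3 intervals.

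The 4 largest strand differences among intervals detected on both strands in all embryos ran from 8.38 to 8.89. In chr11:22681800-22707775 the reverse strand, read by 1 probe, was brighter by 8.89 ± 0.10 (SD, n = 8), at 8.40, 8.14, 8.29 and 8.24 in the WT embryos and 8.18, 8.37, 8.43 and 8.22 in the HET embryos. Its 2 forward probes, at -3.47 and 2.25 on average, were both above background in all embryos. In chr4:136856064-136877219 the 5 reverse probes averaged 4.72 ± 0.05 and the 5 forward probes -4.02 ± 0.80. In this interval the forward strand was highest in HET 3, at -2.46, and next highest in WT 1, at -3.28. Over the 3 forward probes above background in every embryo the forward minus reverse difference there was -7.62. The forward strand was the brighter in chr3:87757295-87774970, by 8.38 ± 0.61, or by 7.06 over such probes. The reverse strand was the brighter in chr14:49314574-49358174. Its forward mean joins a probe at 0.19 that was detected in all embryos to one at -6.76 that was detected in none, and against the detected one alone the forward minus reverse difference was -5.20 ± 0.21 rather than -8.67.

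In 4 intervals the strands differed least. The mean difference was 0.04 ± 0.17 in chr14:115423660-115463160, which had 7 forward and 10 reverse probes. It was 0.11 ± 0.19 in chr12:110870903-110891628, 0.11 ± 0.45 in chr3:34643323-34682773 and 0.13 ± 0.41 in chr8:91569369-91594119. None of these means exceeded its SD over the embryos. In the first 3 the sign turned with normexp (-0.08, -0.20 and -0.09). It turned in the same 3 over probes above background on all 8 arrays, where the reverse strand was the brighter in 8 of 8 embryos (-1.06 ± 0.31, -1.57 ± 0.525 and -0.64 ± 0.43). These small differences were thus means over detected and undetected probes, and no brighter strand can be named. The probes within a strand were far apart: those of the chr14 interval ran from -6.90 to 1.45 on the forward strand and from -6.45 to 2.06 on the reverse.

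The order of the strands was the same in all embryos in 89 of the 106 intervals detected on both strands throughout, and changed in 17, or in 12 over probes above background on all 8 arrays. The difference had its widest range in chr6:35201798-35217831. Its forward strand, read by 2 probes, was -0.23, -3.46, 0.01 and -0.48 in the WT embryos and -0.14, 0.63, 0.09 and 0.54 in the HET embryos. WT 2 alone was low, through 1 of the forward probes, which read -6.325 there and -0.98 to 0.26 in the other 7 embryos. The other forward probe read -0.59 in WT 2, and over probes above background on all 8 arrays the forward strand was the brighter in all 8 embryos. In chr4:44181997-44249172 the forward strand stood higher in HET 1 (-2.34) than in the other 7 embryos (-3.92 to -3.06), and the reverse strand was the brighter only in HET 3. The value of HET 1 came from 1 forward probe, at 3.83 there and -1.85 to -0.95 elsewhere, and over probes above background on all 8 arrays the forward strand was the brighter in all 8. In chr18:67435075-67447150 the mean of the reverse strand was the higher in 7 embryos and that of the forward strand in HET 1, but each strand had 1 of its 2 probes above background in at most 1 embryo. The detected probes, at -1.05 on the reverse strand and -1.82 on the forward, kept their order in all 8 embryos. In chr5:110158475-110223700 the order turned in WT 1 and HET 3 (0.10 and 0.63, against -1.06 to -0.52 elsewhere), with all 3 probes above background throughout. In chr18:90750100-90772025 the means turned in WT 4 and HET 3, while the detected reverse probe (1.56) stayed above the forward probe (-2.21) in all 8 and the other reverse probe (-7.215) was above background in none.

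Taken embryo by embryo, the number of intervals with exactly one strand detected moved little, at 409, 470, 458 and 443 in the WT embryos and 411, 447, 456 and 400 in the HET embryos. The number with both strands moved far more, at 486, 230, 183 and 318 and then 129, 187, 451 and 127. The highest values were in WT 1 and HET 3, the embryos with most receptor probes above background. The dimmer strand of an interval stood further above its mean there than the brighter one. Relative to the mean of the 8 embryos, the dimmer strand stood at 1.30 in HET 3 and 0.44 in WT 1, and the brighter strand at 0.54 and 0.26. The part of these arrays' wider signal in the counts of intervals with both strands was not tested.

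**Figure D4:**
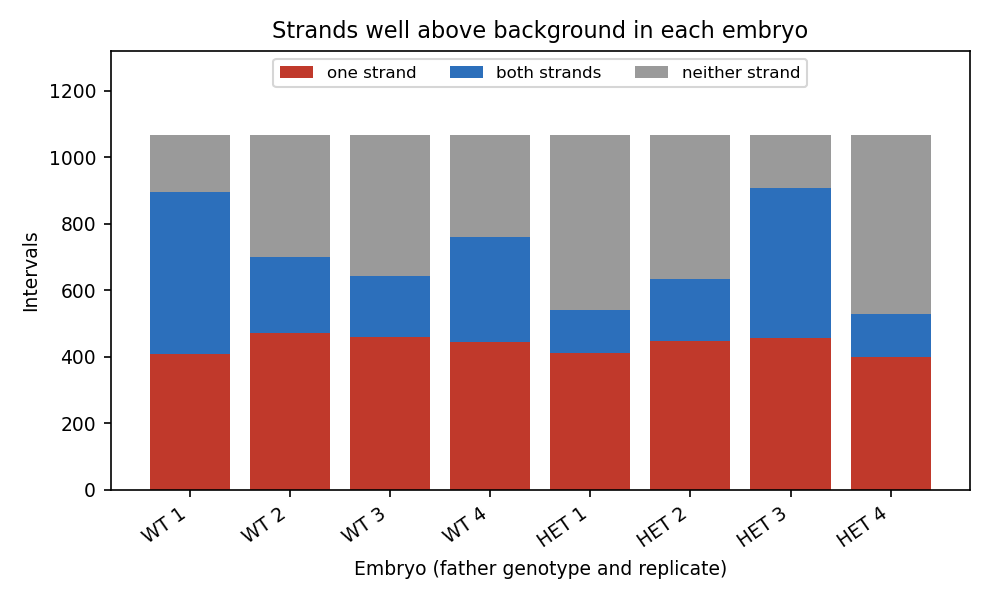
Number of the 1067 intervals with one strand, both strands or neither strand detected in each embryo, as stacked bars from 0. The one-strand part lies between 400 and 470 in every embryo, whereas the both-strand part runs from 127 to 486.

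Of the intervals with any strand detected, one strand alone made up 45.7%, 67.1%, 71.45% and 58.2% in WT 1 to WT 4 and 76.1%, 70.5%, 50.3% and 75.9% in HET 1 to HET 4. The groups overlapped. The means were 60.6% ± 11.4 and 68.2% ± 12.2 (SD, n = 4 each), a difference of 7.57 percentage points (two-sided exact permutation test, p = 0.371, with 0.0286 the smallest value that 70 assignments allow). Without HET 3 it was 13.5 (exact p = 0.143), and without WT 1 it was 2.60 (exact p = 0.714). With detection set by one signal level common to all arrays, it was -3.80 (exact p = 0.857), so no direction can be given.

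Probes of the 1067 intervals were detected slightly more often than probes of intervals probed on a single strand. The shares were 58.6%, 42.7%, 38.95% and 48.7% in the WT embryos and 32.2%, 38.4%, 56.9% and 31.6% in the HET embryos. They exceeded those of single-strand intervals in 8 of 8 embryos, by 1.5 percentage points ± 0.31 (SD, n = 8; two-sided exact sign-flip test over embryos, p = 0.00781, the smallest it can give). With Agilent's less strict call of a positive and significant spot, the difference was 0.54 points (exact p = 0.0469). The embryos share the same probes, so the test speaks of the arrays and not of other intervals.

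The intervals lay on 20 chromosomes, from 24 on chromosome 19 to 83 on chromosome 1, with 25 on the X. Of the 25 on the X, 10 had one strand and 9 both. Within 50 kb of each other lay 119 neighbouring pairs, of which 31 overlapped. In 18 of these pairs each interval had one strand detected, and it was the same strand in 15 and the opposite strand in 3. Neighbouring intervals may be parts of one transcript, so these pairs are not independent. Among the 62 pairs with signal in each interval, the brighter strand was the same in 39 and opposite in 23.

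The father's genotype was compared next. Of the 9682 probes, 4026 passed the filter (well above background on at least 4 arrays, and not in the lowest 20% by mean signal), so that most probes of undetected strands were not tested. By limma over all 33106 tested probes of the array, 0 of the 4026 were called at the study's limits (adjusted p under 0.01 and at least 2-fold), as was 0% of all tested probes. The smallest adjusted p was 0.223. At an unadjusted p under 0.05 there were 195 probes (4.84%), against 4.34% of all tested probes and 5.09% of those in single-strand intervals. Of the 195, 42 were higher with HET fathers (1.04% of those tested, against 1.85% of all tested probes). Prl8a2, a decidua gene, also stood lower with HET fathers, by 2.46 on the log2 scale (limma unadjusted p = 0.0126, limma adjusted p = 1), and Prl3d1, a trophoblast gene, differed between the groups by -0.91; Prl3c1 and Tpbpa did not pass the filter. The part of other tissue in these counts was not tested. The count at an unadjusted p under 0.05 was 91 (21 higher) with arrays aligned by their median and 110 with the embryo code of the labels as a random block. The father groups did not overlap for 105 probes (2.61%), against 3.15% of all tested probes and 2.72% of those in single-strand intervals. The median change was -0.05 for these probes and -0.00237 for all tested probes. Without HET 3 the number at an unadjusted p under 0.05 was 508, of which 56 were higher, and 0 were called.

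Over probes above background on all 8 arrays, 142 had an unadjusted p under 0.05 by limma. Of these, 46 were higher with HET fathers, so most were again lower. The direction turned when the probes left out by the filter were added. With no filter, 1237 of 9682 probes (12.8%) had an unadjusted p under 0.05, against 9.64% of all 55681 probes. Of the 1237, 1036 were higher with HET fathers (10.7% of the 9682, against 8.11% of all probes). The lowest signal well above background differed in the same direction, from -7.11 to -6.64 on the WT arrays and from -6.38 to -5.08 on the HET arrays. Its part in the count was not tested.

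A limma adjusted p under 0.5 was reached by a probe in 6 intervals, and the next 2 are those whose forward strand was detected in 8 embryos, chosen after the values were seen. The first, chr5:35975265-35982561, 7297 bp long with 4 probes on each strand, is one of the 6 bright both-strand intervals. Its forward strand read 2.67, 2.57, 2.68 and 2.71 in the WT embryos and 2.04, 2.09, 2.13 and 2.23 in the HET embryos, without overlap. Its reverse strand read 1.08, 1.33, 1.24 and 1.29 and then 1.24, 1.05, 1.05 and 1.46, with full overlap. The forward probes were lower with HET fathers by 0.49 to 0.565 on the log2 scale in all 4 cases. By limma, their unadjusted p-values were 6.5e-05 to 0.000419 and their adjusted p-values 0.365 to 0.741, so none passed. The 4 reverse probes differed by -0.21 to 0.09. The difference between strands was 1.42 ± 0.14 with WT fathers and 0.92 ± 0.16 with HET fathers (change -0.50, SE 0.17, unadjusted p = 0.0189, limma adjusted p = 0.743).

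In the second, chr8:41730287-41746862, the forward strand was detected in 8 embryos and the reverse strand in 2. The forward strand read -4.19, -4.83, -4.92 and -5.04 in the WT embryos and -3.95, -4.09, -3.58 and -4.01 in the HET embryos. Of its 5 forward probes, 3 passed the filter and were higher with HET fathers by 1.11 (SE 0.13), 1.39 (SE 0.20) and 1.07 (SE 0.20), with limma adjusted p-values of 0.353, 0.457 and 0.845. The reverse probes did not pass the filter, and their strand was highest in HET 3, at -3.95, and WT 1, at -5.55.

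In the other 4 intervals the small p-value belonged to a single probe. In chr13:98038568-98068079 a reverse probe read 0.32, 0.17, 0.08 and 0.19 in the WT embryos and -0.91, -0.79, -0.54 and -0.62 in the HET embryos, without overlap (change -0.90, unadjusted p = 3.42e-05, limma adjusted p = 0.353). The other tested reverse probe of this interval, the brighter at 2.68, differed by -0.006. In chr7:140011140-140018815 a reverse probe above background on 4 arrays differed by -1.02 (unadjusted p = 1.35e-05, limma adjusted p = 0.223), and the other tested one by -0.21. In chr1:75075500-75102200 a reverse probe above background on 4 arrays differed by -0.83. It read -4.80 to -4.33 in the WT embryos and -5.5 to -5.27 in the HET embryos. The other 2 tested on that strand differed by 0.09 and -0.10. In chr13:56286339-56298089 a forward probe above background on 5 arrays differed by -1.21, with the other 2 tested on that strand at 0.125 and -0.48. The limma adjusted p was 0.457 for both probes. Probes above background on so few arrays can pass the filter through the group where they are higher, so no conclusion is drawn from them.

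**Figure D5:**
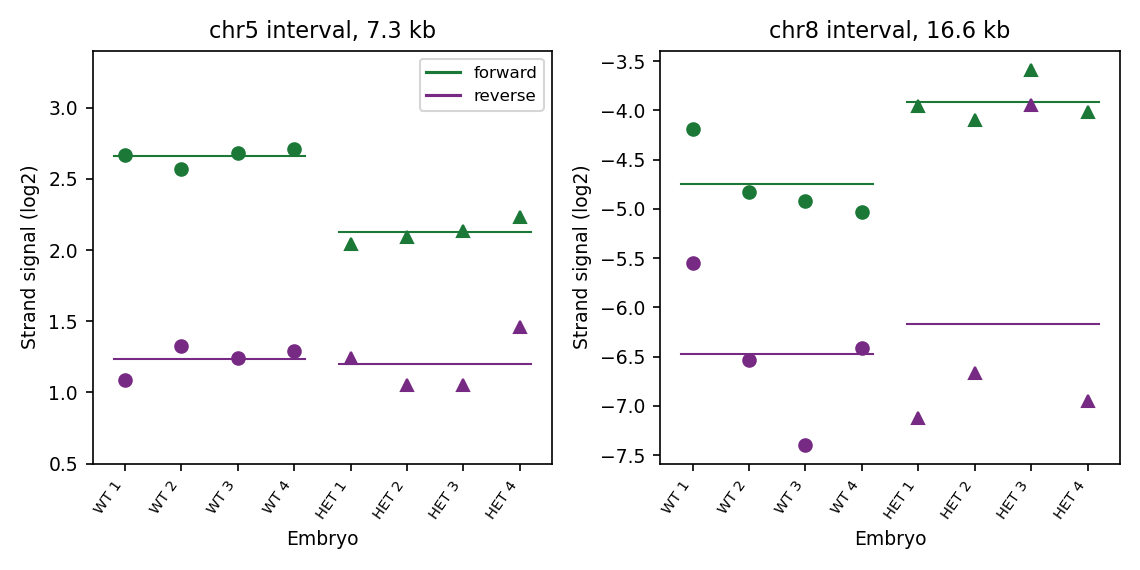
Log2 signal of the forward (green) and reverse (purple) strand in each embryo, with circles for WT fathers, triangles for HET fathers and lines at the group means, for the chr5 interval of 7.3 kb and the chr8 interval of 16.6 kb; the y axes differ. In the chr5 interval the 4 WT forward values (2.57 to 2.71) lie above the 4 HET values (2.04 to 2.23), while the reverse values overlap.

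The forward minus reverse difference was also tested, since the brightness of a probe cancels when embryos are compared. This holds only for signal well above background, and the strand means also take in probes below it. Over the 236 intervals with both strands, limma called 0 (0%) for father genotype, with a smallest adjusted p of 0.462. At an unadjusted p under 0.05 there were 14 (5.93%), 8 of them (3.39%) with a higher forward minus reverse difference with HET fathers, and the groups did not overlap in 11 (4.66%). Only 2 intervals had an unadjusted p under 0.01 and groups without overlap. In chr8:108153471-108159346 the difference was -0.05, -0.21, 0.20 and 0.23 in the WT embryos and 0.70, 0.83, 1.04 and 0.81 in the HET embryos (change 0.805, SE 0.18, unadjusted p = 0.00196, limma adjusted p = 0.462). In chr6:50339188-50409363 the group means were -0.57 ± 0.24 with WT fathers and 0.16 ± 0.27 with HET fathers, with a limma adjusted p of 0.743. Over probes above background on all 8 arrays, 1 on each strand, the difference in the chr6 interval was 1.15 ± 0.31. The groups then overlapped, at 0.56 to 1.30 with WT fathers and 0.99 to 1.495 with HET fathers. The chr8 interval had no such probe on its reverse strand. That strand was detected in 5 embryos and read -4.85 to -3.98 with WT fathers and -5.95 to -4.43 with HET fathers. In the chr6 interval each strand was detected in 5 embryos. A strand detected in so few embryos can pass the filter through the group where it is higher, so no conclusion is drawn from these 2 intervals. Both intervals were dim, and the changes of 0.805 and 0.73 were 0.215 and 0.20 with normexp.

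Sex was balanced over the father groups and was compared in the same way. By limma 13 of all tested probes (0.0393%) were called between female and male embryos, and 0 of the 4026 probes of these intervals, with a smallest adjusted p of 0.45. At an unadjusted p under 0.05 there were 198 (4.92%), against 3.39% of all tested probes and 4.32% of those in single-strand intervals. Of the 198, 156 were higher in females (3.87%, against 1.66% of all tested probes). With arrays aligned by their median the number was 46, of which 28 were higher. For strand differences 0 of 236 were called and 3 (1.27%) had an unadjusted p under 0.05. The one with an unadjusted p under 0.01 and the largest change was chr4:128060015-128075590, where the forward minus reverse difference was higher in females by 0.89 (limma adjusted p = 0.996).

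The study's list of 112 transcripts that changed in other embryos, sired by Eed hypo/hypo males, includes 31 probes of 28 of these intervals. That list was chosen by the study on those embryos, compared with embryos of Eed hypo/wt males. The paper states that all of its retrotransposed genes and lincRNAs were higher with hypo/hypo fathers. Hypo/wt fathers were the reference there and are set against wt/wt fathers here. A direction in the present embryos therefore neither repeats nor opposes that of the list. The share of lower probes among all 4026 is not given here. The strand given in the list was that of the probe's suffix in 31 of 31. In the present embryos 9 of the 28 intervals had one strand, 7 both and 12 neither, and 24 of the 31 probes lay on the brighter strand. Of the 30 that passed the filter, 24 were lower with HET fathers and 6 higher, with a median change of -0.10 and an unadjusted p under 0.05 for 4, against a median of -0.05 over the 4026 probes and -0.00237 over all tested probes, of which 4.84% and 4.34% had such a p. Besides the chr5 interval above, whose listed probe is a reverse one with a change of -0.08, the brightest were chr12:82495575-82516300 (forward 3.24 ± 0.16, reverse -3.09 ± 0.29) and chr3:51138643-51146693 (forward 0.65 ± 0.12, reverse -3.14 ± 1.01). In the chr12 interval the listed probe, a forward one, read 0.35, 0.05, 0.12 and 0.20 in the WT embryos and -0.52, -0.44, -0.29 and -0.27 in the HET embryos, without overlap (change -0.56, unadjusted p = 0.000515, limma adjusted p = 0.78). The other forward probe, at 6.58, differed by 0.06. In the chr3 interval the listed forward probe differed by -0.03, and the reverse strand was highest in HET 3 (-1.54) and HET 1 (-1.84).

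For comparison, 25 named noncoding genes, several of them antisense to a coding gene, were looked up, and 13 were matched to the array. Of the 13, 10 were well above background in all 8 embryos. Airn, the antisense transcript of the imprinted Igf2r cluster, stood at 1.25, and Kcnq1ot1, its counterpart at the Kcnq1 cluster, at 0.20. Meg3, the maternally expressed noncoding RNA of the Dlk1 cluster, stood at 5.26. Of 11 tested, 0 had an unadjusted p under 0.05 between father groups by limma, and their median change was -0.01.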

How the data were processed

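The authors hybridised Cy3-labelled cRNA from DNase-treated total RNA of 8 embryos to one-colour arrays and extracted spots with Agilent Feature Extraction 11.0.1.1, per the labels. The deposited intensity values are background-subtracted signals, not scaled between arrays, and the methods give no percentile for their shift. The deposited table of the whole series, in intensity units too, served as an alternative, and 0 of its sample columns were left unused. Intervals are named on mm9; they were not matched to genes.

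Outlier spots were dropped, replicate spots averaged, and log2 signals reduced by the 75th percentile of each array. Probes well above background on at least 4 of 8 arrays and outside the lowest 20% were fitted with limma 3.58.1 in R 4.3.3. Benjamini-Hochberg adjustment was over all tested probes. The fit was tried on known changes planted into shuffled residuals of these same arrays. The share of planted changes recovered is not given here, so how small a change the fit could call is not stated. Strand differences were fitted over intervals with both strands detected in at least 4 embryos. The number of arrays limits the precision. Where a strand had several probes, detection in at least 50% of them was required, a choice made after the number of probes was seen. Single values per embryo were compared by exact permutation tests in Python 3.11.15.

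Intervals were named by rule: the 8 brightest strict one-strand intervals, the 6 strict both-strand intervals with the brightest dimmer strand, the 4 with the largest and 4 with the smallest strand difference, the 5 of changing order with the widest range, up to 5 with the largest change by father or sex, and the 3 brightest of the study's list. The 6 intervals with a probe at a father limma adjusted p under 0.5 were named outside this rule, after their values were seen. Members and lists were chosen with earlier results of these data known. Alternatives were other scalings (median shift, quantile, normexp on the median spot signal with an offset of 50, since the files hold no mean signal), other filters, detection calls, covariates and blocks, and leaving out embryos. Symbols came from the RefSeq table for 27235 of the 28685 probes that carry an accession.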

Additional observations from a re-analysis of the deposited data

Results flagged for a closer look

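In groups of 4 embryos, a single embryo lay far from the other 3, by Dixon's ratio of its gap to the range, in 2 of 66 groups examined, where chance gives 3.3 (1 in 20). Strand differences were examined only where both strands were detected in at least 4 embryos. The dimmer strand's signal was taken relative to the mean of the 8 embryos, in intervals with a strand detected in at least 4. Its median over these intervals was 1.30 in HET 3 against -0.44 to -0.21 in the other HET embryos (ratio 0.864). HET 3 also had 542 of 1446 receptor probes above background; the part of that array's wider signal in this value was not tested. The forward minus reverse difference of chr4:44181997-44249172 was 2.195 in HET 1 against -0.18 to 0.13 in the other HET embryos (ratio 0.868), through the single forward probe that read 3.83 in HET 1.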

How the results depend on the processing

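The limma tests of probes and of strand differences, for father genotype and for sex, gave 0 calls under every alternative run, including leaving out each embryo and the replicate number as a block (0 calls, with an unadjusted p under 0.05 for 136 probes and 4 strand differences between father groups). Same-numbered embryos did not deviate together (correlations -0.55, -0.04, -0.59 and -0.15), so no pairing by number was seen. The check cannot exclude one, since the wider signal of WT 1 and HET 3 enters the values of numbers 1 and 3. At an unadjusted p under 0.05 alone there were 195 probes and 14 strand differences by father and 198 and 3 by sex. Leaving out 1 embryo gave 129 to 508 and 5 to 22 by father (508 and 22 without HET 3), and 137 to 257 and 1 to 3 by sex.

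The class counts moved most. Both strands were detected in 143 intervals when at least 6 embryos were required, in 152 without WT 1 and HET 3, in 758 by the positive and significant call, in 604 by the brightest probe, in 669 by any probe (an alternative added after seeing the data) and in 22 of the 73 with a single probe per strand. One strand was detected in 255 by the positive and significant call and in 26 of the 73. Neither was detected in 54 by that call, 120 by the brightest probe, 102 by any probe and 25 of the 73. Leaving out 1 embryo gave 180 to 236 for both, 437 to 458 for one and 394 to 431 for neither.

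The median strand difference was 1.166 with normexp, 1.257 with no filter, 2.15 in intervals above background on all 8 arrays, 2.83 with single probes, 2.11 with the brightest probe and also over probes above background on all 8 arrays (added after seeing the data), 2.30 without WT 1 and HET 3, and 1.68 to 1.87 without 1 embryo. The difference in the one-strand share was 2.60 to 13.5 points without 1 embryo and -3.80 (exact p = 0.857) with one level for all arrays, an alternative added after seeing the data. The excess of detected probes over single-strand intervals was 1.44 to 1.57 points. Signal over background limits the dim strands: a strand below it has no exact value, and the folds given against it are no lower limits.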
